A study of Mus musculus with 8 samples.

Results

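The LRIG family was described here from its 3 genes, *Lrig1*, *Lrig2* and *Lrig3*, which are 3 of the 54307 gene rows in the count table, and from their 23 transcripts among the 140793 that were quantified. The members were taken by name. *Lrig1* (ENSMUSG00000030029.15) lies on the minus strand of chromosome 6 and has 7 transcripts, *Lrig2* (ENSMUSG00000032913.14) lies on the minus strand of chromosome 3 and has 9, and *Lrig3* (ENSMUSG00000020105.10) lies on the plus strand of chromosome 10 and has 7. The study sequenced polyA RNA from the periventricular area of 1 brain hemisphere, which holds the ventricular-subventricular zone (V-SVZ), in 4 *Lrig1* KO mice and 4 WT mice, all 8 weeks old and on a 129 background (129-Elite in the study's methods). KO mice were homozygous for CreERT2, a tamoxifen-inducible Cre recombinase, inserted into exon 1 of *Lrig1* itself, which makes them a constitutive knockout in every cell, and WT mice were littermates with 2 wild-type alleles. No treatment is given for either group. The WT group held 3 female mice and 1 male (replicate 2), and the KO group held 2 females (replicates 2 and 4) and 2 males (replicates 1 and 3).

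LRIG proteins are single-pass membrane proteins with leucine-rich repeats and immunoglobulin-like domains outside the cell. LRIG1 is best known for restraining receptor tyrosine kinases such as EGFR, in part by bringing in the ubiquitin ligase Cbl, and it marks slowly dividing stem cells in several tissues, among them neural stem cells of the V-SVZ. LRIG2 is known to protect the guidance receptor neogenin from shedding, LRIG3 is known for its role in the inner ear, and members of the family also bind BMP receptors.

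Totals of the gene counts lay between 47887437 and 61826150 in WT mice and between 52664769 and 74482334 in KO mice. All 51 markers of the 10 cell types that the dissection could hold had reads in at least 1 mouse, including those of neural stem cells and astrocytes, ependymal cells and neuroblasts. Not every marker had them in each mouse, and the septal marker *Dbh* was at 0 in KO replicate 2. Reads of *Xist* and *Ddx3y* gave the labelled sex in 8 of 8 mice. The summed CPM (counts scaled to library size, TMM-normalized) of 5 cortical excitatory neuron markers was 1772 in WT replicate 2 and between 90.7 and 367 in the other WT mice, so this library stood apart from its group.

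The *Lrig1* transcript models differ at their first exon, which is where the KO allele was altered, and the bases at the first splice junction tell the models apart. The first exon of *Lrig1-202*, which holds the start codon, is 676 bases long, of which 224 are coding, or 6.84% of the coding sequence of 3273 bases. The sequences below are from Gencode M21 (GRCm38, minus strand of chromosome 6), 5′ to 3′, with the last 30 bases of each transcript's first exon in capitals and the first 30 bases of the exon it joins in lower case. *Lrig1-201* and *Lrig1-207* have the junction of *Lrig1-202*.

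Lrig1-202: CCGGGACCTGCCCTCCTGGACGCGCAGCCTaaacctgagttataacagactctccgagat
Lrig1-204: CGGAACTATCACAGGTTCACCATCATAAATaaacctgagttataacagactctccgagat
Lrig1-203: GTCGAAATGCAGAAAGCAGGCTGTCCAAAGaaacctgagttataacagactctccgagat
Lrig1-205: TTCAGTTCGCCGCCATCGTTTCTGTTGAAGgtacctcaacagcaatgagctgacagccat

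*Lrig1-203* and *Lrig1-204* join their own first exons to exon 2 of *Lrig1-202*, and *Lrig1-205* joins its own to exon 3. These 3 transcripts are annotated as processed transcripts without a coding sequence. They begin at a first exon other than the one that carries CreERT2 in KO mice. Reads of such transcripts would not need exon 1.

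*Lrig1* was lower in every KO mouse than in any WT mouse, and reads were left in every KO mouse. The estimated reads were 2532, 824, 1942 and 1683 in WT replicates 1 to 4, and 72.0, 245, 88.0 and 188 in KO replicates 1 to 4. In CPM the WT mice were at 45.6, 13.5, 41.4 and 34.3 and the KO mice at 1.41, 4.15, 1.17 and 2.96. The 2 groups did not overlap, and the lowest value of each group was from a male mouse. The mean was 33.7 ± 14.2 CPM in WT and 2.42 ± 1.40 CPM in KO (SD, n = 4 each), or 7.19% of WT. The log2 fold change was -3.80 with an SE of 0.52 (Benjamini-Hochberg or BH-adjusted p = 0.286 in edgeR's quasi-likelihood test), which did not pass the threshold of an adjusted p under 0.1. In the same test 1 of the 17669 genes passed, or 0.00566%, and KO lay wholly below WT for 0.877% of genes. The biological coefficient of variation of *Lrig1* within genotypes was 0.460, against a median of 0.181 over all genes. With sex as a covariate, where 0.0113% of genes passed, the log2 fold change was -3.47 with an SE of 0.15 (BH-adjusted p = 0.000176, edgeR), and in female mice alone, 3 WT against 2 KO, it was -3.50 with an SE of 0.21 (BH-adjusted p = 0.0139, edgeR). Over all alternatives its adjusted p lay between 7.04e-97 (DESeq2 with sex) and 1.0 (edgeR without WT replicate 1). In bulk tissue, fewer cells that express a gene and less RNA per cell cannot be told apart. The summed CPM of the 6 markers of neural stem cells and astrocytes was between 1488 and 1879 in WT and between 1385 and 1817 in KO.

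The 2 paralogs were at nearly the same level in both genotypes. *Lrig2* was at 25.0, 22.5, 25.6 and 24.9 CPM in WT mice against 25.4, 28.8, 28.0 and 24.7 in KO mice. The groups overlapped, with KO replicate 4 below 3 of the WT mice. The mean was 24.5 ± 1.39 CPM in WT and 26.7 ± 1.99 CPM in KO (SD, n = 4 each), and the log2 fold change was 0.12 with an SE of 0.080 (BH-adjusted p = 1.0, edgeR). Its 95% interval ran from -0.056 to 0.31, so the KO level was between 0.962 and 1.24 times that of WT. *Lrig3*, the least abundant paralog, was at 2.03, 1.90, 1.75 and 2.73 CPM in WT mice against 2.07, 2.42, 2.07 and 2.76 in KO mice. These values also overlapped, and the highest mouse of each group was replicate 4, a number that does not pair the mice. The mean was 2.10 ± 0.435 CPM in WT and 2.33 ± 0.331 CPM in KO (SD, n = 4 each), with a log2 fold change of 0.15 with an SE of 0.18 (BH-adjusted p = 1.0, edgeR). The 95% interval ran from -0.27 to 0.56, or from 0.830 to 1.48 times the WT level, and is wider than that of *Lrig2*, with only 82.0 to 175 reads of *Lrig3* in a mouse. Changes of the paralogs within these intervals remain possible with 4 mice a group.

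**Figure D1:**
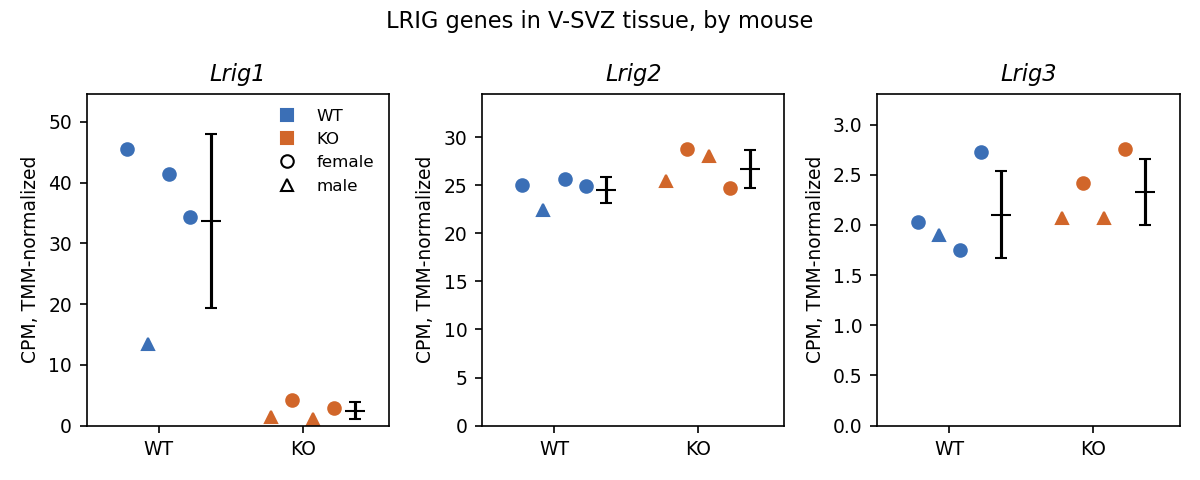
Points show the TMM-normalized CPM of *Lrig1*, *Lrig2* and *Lrig3* in each of 4 WT and 4 KO mice, with circles for females, triangles for males, and the mean and SD beside each group. *Lrig1* lay between 13.5 and 45.6 in WT and between 1.17 and 4.15 in KO, with the male mice lowest in both groups, while the groups overlapped for *Lrig2* and *Lrig3*.

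The TPM scale, which allows for transcript length, sets the 3 genes beside each other. In WT mice *Lrig1* was at 9.40 ± 3.55 TPM (SD, n = 4), *Lrig2* at 5.08 ± 0.462 and *Lrig3* at 0.791 ± 0.210. *Lrig1* was above *Lrig2* in the 3 female WT mice and below it in the male, with 4.23 against 5.25 TPM, so these 2 genes overlapped in WT. In KO mice *Lrig2* came first with 5.16 ± 0.664 TPM (SD, n = 4), followed by *Lrig3* with 0.847 ± 0.222 and *Lrig1* with 0.687 ± 0.406, and the last 2 overlapped. *Lrig1* was above *Lrig3* in KO replicate 2 (1.15 against 0.830 TPM) and below it in the other KO mice. The summed TPM of the family was 17.9, 10.3, 15.5 and 17.4 in WT mice against 5.29, 7.60, 6.83 and 7.07 in KO mice. Each KO sum was below each WT sum, with means of 15.3 ± 3.48 and 6.70 ± 0.990 TPM (SD, n = 4 each). Of the difference in means, KO minus WT, -8.71 TPM was that of *Lrig1*, 0.078 TPM that of *Lrig2* and 0.0564 TPM that of *Lrig3*. *Lrig1* made up 68.6%, 41.1%, 67.0% and 61.4% of the family's TPM in WT mice against 6.58%, 15.1%, 5.0% and 12.9% in KO mice. *Lrig2* made up between 70.7% and 84.0% in KO, with nearly the same TPM of its own as in WT.

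**Figure D2:**
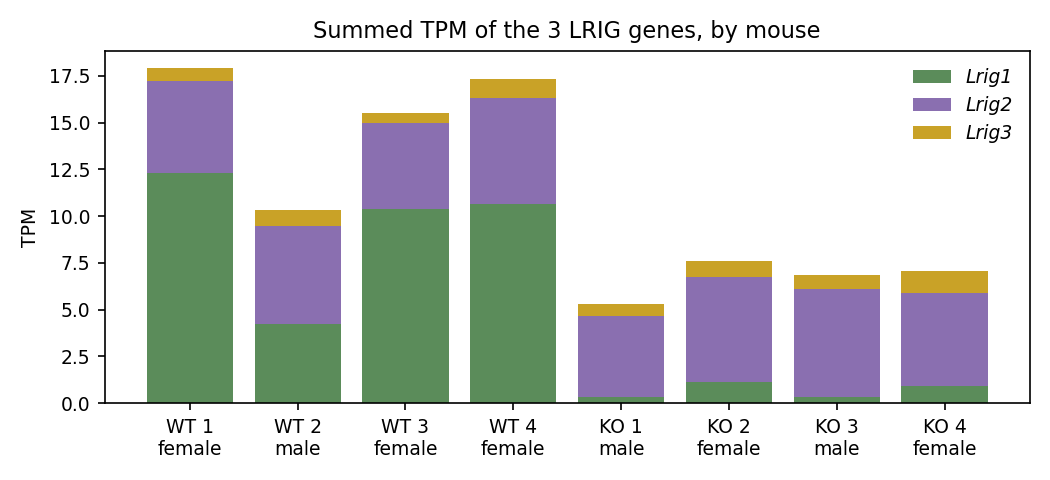
Stacked bars give the TPM of the 3 LRIG genes in each mouse, with the sex under each bar. The *Lrig1* part lay between 4.23 and 12.3 TPM in WT and between 0.341 and 1.15 in KO, while the *Lrig2* part lay between 4.56 and 5.63 TPM in WT and between 4.29 and 5.74 in KO.

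*Lrig1* also differed between the sexes, within both genotypes and in the same direction. In WT it was at 13.5 CPM in the male mouse and at a mean of 40.4 in the 3 females, so the male had 33.4% of the female level. In KO it was at 1.41 and 1.17 CPM in the 2 males and at 4.15 and 2.96 in the 2 females, and the mean of the males, 1.29, was 36.2% of that of the females, 3.56. Each male was thus below each female of its genotype, and how many of all genes had this order was not counted. With genotype in the same model, the log2 difference of male from female mice was -1.53 with an SE of 0.16 (BH-adjusted p = 0.00971, edgeR). *Lrig1* stood at rank 13 by unadjusted p, and 657 of the 17669 genes passed in this comparison, or 3.72%, of which 150 were lower in males (0.849%). An exact permutation test of the sexes within genotypes, 2-sided, gave p = 0.0417 for *Lrig1*, the smallest that its 24 arrangements allow. This value follows from the order of the mice given above and is not further evidence. For *Lrig2* the log2 difference was -0.070 with an SE of 0.085 (95% interval -0.27 to 0.13, BH-adjusted p = 0.746) and for *Lrig3* it was -0.27 with an SE of 0.18 (95% interval -0.69 to 0.15, BH-adjusted p = 0.527) in the same edgeR fit. *Lrig1* passed and the 2 paralogs did not, and whether the genes differed from each other in this was not tested.

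No difference in the loss of *Lrig1* between the sexes was detected. The log2 difference between the male and the female fold change of KO against WT was 0.11 with an SE of 0.32 (95% interval -0.63 to 0.86, BH-adjusted p = 0.955, edgeR), and 1 of the 17669 genes passed this test (0.00566%). The WT male is a single mouse. Without it, the log2 difference of the sexes rested on the KO mice and was -1.48 with an SE of 0.22 (BH-adjusted p = 0.155, edgeR), which did not pass.

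Most markers of cortical neurons were higher in the males. Summed CPM of the 5 cortical excitatory neuron markers was 1772, 474 and 870 in the 3 males (WT replicate 2, KO replicates 1 and 3) and between 90.7 and 367 in the 5 females, so the sexes did not overlap, as for 1 of the 10 marker lists. Of the 5 markers, 3 separated the sexes in this way. *Tbr1* was at 33.6 CPM in the male KO replicate 1 and at 33.9 in the female WT replicate 1, and *Rasgrf2* was at 47.2 in that male and at up to 102 in the females. In the WT females, with cortical sums of 367, 90.7 and 267 (replicates 1, 3 and 4), *Lrig1* was at 45.6, 41.4 and 34.3 CPM. In the KO males, with sums of 474 and 870, it was at 1.41 and 1.17 CPM, and in the KO females, with 137 and 96.8, at 4.15 and 2.96. The 5 striatal neuron markers summed to between 1610 and 4344 in males and to between 2660 and 5211 in females, and the 6 markers of neural stem cells and astrocytes to between 1385 and 1518 in males and to between 1488 and 1879 in females. The log2 cortical sum was also fitted as a further covariate, an alternative chosen after seeing the data. The sex difference of *Lrig1* was then -1.55 (unadjusted p = 0.00267, BH-adjusted p = 0.754, edgeR) and past the threshold no longer. Its SE was 0.36, against 0.16 without the cortical sum. Since the sexes did not overlap in that sum, this fit cannot tell sex from cortical content. The KO log2 fold change of *Lrig1* was -4.03 with the cortical sum as a covariate and -3.46 with sex as well (BH-adjusted p = 0.00725 and 0.00237, edgeR). The part of cortical tissue or of other dissection differences in the sex difference was not tested.

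**Figure D3:**
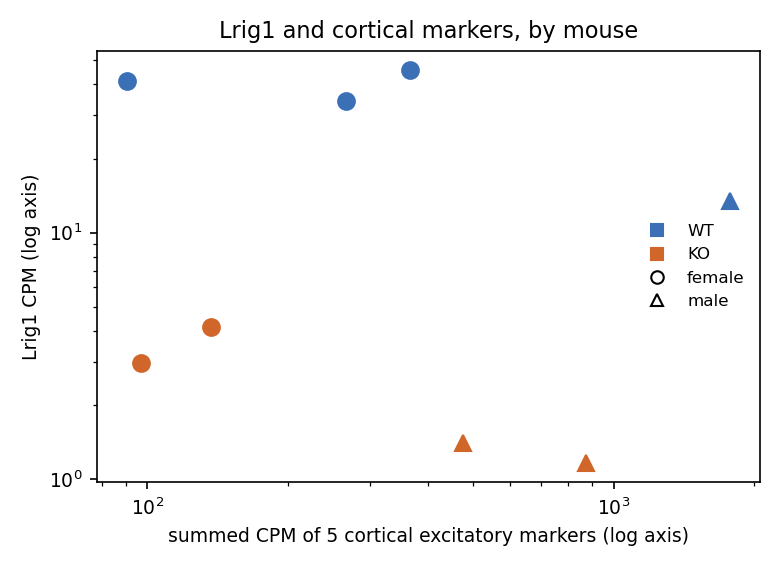
Each point is a mouse, with the summed CPM of 5 cortical excitatory neuron markers on the horizontal log axis and *Lrig1* CPM on the vertical log axis, colours for genotype and shapes for sex. The 3 males had the highest cortical sums, from 474 to 1772, and in each genotype the lowest *Lrig1*.

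The *Lrig1* reads were on 4 of its 7 transcripts, and nearly all on *Lrig1-202* and *Lrig1-207*. *Lrig1-201*, *Lrig1-205* and *Lrig1-206* had 0 estimated reads in all mice. Of the transcripts with a first exon of their own, *Lrig1-204* had 8.58 reads in WT replicate 3 and 1.25 in KO replicate 4. *Lrig1-203* had 1.11 in WT replicate 3, and both were at 0 in the other mice. Apart from those 1.25, the reads left in KO were assigned to models that include exon 1, which does not show that they cover it. The files give totals for each transcript, not positions of reads along it, and CreERT2 is not a named feature in them, so whether the reads left in KO cover exon 1 was not tested.

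*Lrig1-202*, the main protein-coding model, is 4951 bases long in 19 exons. *Lrig1-207*, annotated as a target of nonsense-mediated decay, is 4849 bases long in 20 exons and has the same coding sequence. It lacks a stretch of 130 bases that is spliced out as an intron 852 bases after the last coding base, and extends 21 bases farther at the 5′ end and 7 at the 3′ end. Of the 31-base words in these transcripts, 4767 are in both, and 52 are in *Lrig1-207* and not in *Lrig1-202*. Another 154 are in *Lrig1-202* and in neither *Lrig1-207* nor *Lrig1-201*. *Lrig1-202* has 0 words that no other *Lrig1* model holds, so these 154 are also in shorter models without a coding sequence. Reads with these words fit those models too. *Lrig1-201* is contained whole in *Lrig1-207*, so reads of those 2 cannot be told apart except near the ends. The split of reads between *Lrig1-202* and *Lrig1-207* is thus Salmon's estimate from the few reads that hold such words.

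*Lrig1-202* had 2051, 787, 1736 and 1240 estimated reads in WT mice against 3.72, 140, 23.0 and 70.4 in KO mice. The groups did not overlap, and again the males were lowest in each. *Lrig1-202* was at 28.0 ± 11.5 CPM in WT and 0.970 ± 1.05 CPM in KO (SD, n = 4 each), or 3.46% of WT, with a log2 fold change of -4.85 with an SE of 0.91 (BH-adjusted p = 0.995, edgeR). It was -5.80 without KO replicate 2 and -4.24 in female mice alone. In that test 0 of 39966 transcripts passed (0%), 817 had an unadjusted p under 0.05 (2.04%), and DESeq2 called 35 lower and 23 higher, while KO lay wholly below WT for 0.938% of transcripts. *Lrig1-207* had 481, 36.8, 196 and 443 reads in WT mice against 68.3, 105, 65.0 and 116 in KO mice. Here the groups overlapped, since the WT male was below every KO mouse. Its mean was 5.61 ± 3.98 CPM in WT and 1.46 ± 0.454 CPM in KO (SD, n = 4 each), or 25.9% of WT, with a log2 fold change of -1.95 with an SE of 0.71 (BH-adjusted p = 1.0, edgeR). With sex as a covariate it was -1.15 with an SE of 0.68. The log2 difference of males from females, with genotype in the model, was -2.14 with an SE of 0.53 (BH-adjusted p = 0.273) for *Lrig1-202* and -1.72 with an SE of 0.70 (BH-adjusted p = 0.529) for *Lrig1-207* in edgeR.

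The *Lrig1* reads were divided between the 2 models in different shares in KO and WT mice, although the test of usage did not pass. *Lrig1-207* made up 19.0%, 4.46%, 10.1% and 26.3% of the gene's reads in the WT mice. In the KO mice it made up 94.8% (95% Wilson interval 87.1 to 98.0), 43.0% (36.9 to 49.2), 73.9% (63.8 to 81.9) and 61.9% (54.8 to 68.5). Each KO share was above each WT share, with means of 15.0% ± 9.64 and 68.4% ± 21.7 (SD, n = 4 each). The exact permutation p was 0.0286, 2-sided, the smallest that 4 mice against 4 allow. KO lay wholly above WT in this share for 1.18% of the 31733 transcripts with reads of their gene in all mice. In a test of transcript usage over all genes with several tested transcripts (edgeR's diffSpliceDGE), the log2 fold change relative to the gene was 1.85 for *Lrig1-207* and -1.06 for *Lrig1-202*, with a BH-adjusted p of 1.0 for both over 31747 transcripts. The unadjusted p-values of this edgeR model were 0.140 and 0.138, and 19 transcripts passed (0.0598%). With sex as a covariate the values were 2.32 for *Lrig1-207* and -1.35 for *Lrig1-202*. Their unadjusted p-values in diffSpliceDGE were then 0.0255 and 0.00862, and neither passed after BH adjustment. The intervals cover counting error only and not the error of assigning reads to models that share most of their sequence.

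**Figure D4:**
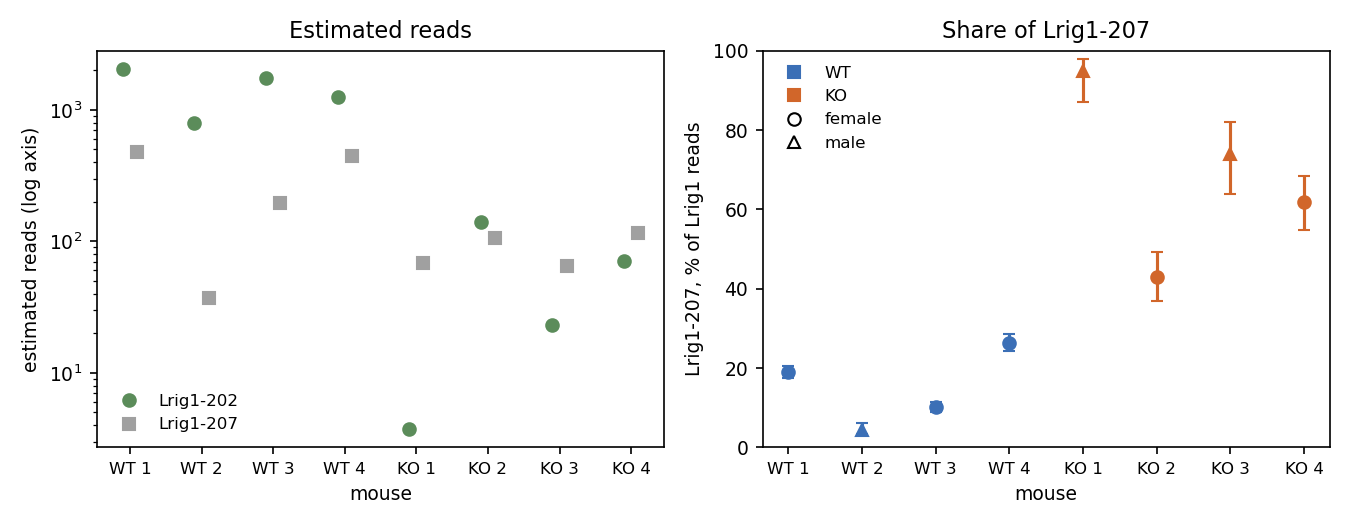
The left panel gives the estimated reads of *Lrig1-202* (circles) and *Lrig1-207* (squares) in each mouse on a log axis, and the right panel the share of *Lrig1* reads on *Lrig1-207* with its 95% Wilson interval, coloured by genotype. *Lrig1-202* had between 787 and 2051 reads in WT and between 3.72 and 140 in KO, and the share of *Lrig1-207* lay between 4.46% and 26.3% in WT and between 43.0% and 94.8% in KO.

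*Lrig1* shares little sequence with other genes. No 31-base word is shared between any 2 of the LRIG genes, whose coding sequences are 60.0% identical for *Lrig1* and *Lrig2*, 61.7% for *Lrig1* and *Lrig3*, and 62.0% for *Lrig2* and *Lrig3*, so a 31-base match places a read on 1 of the 3 genes. Of the 5602 words of *Lrig1*, 114 (2.04%) are found in another gene, all of them in *Slc25a26*, a mitochondrial carrier gene on the opposite strand whose 3′ end overlaps that of *Lrig1* over 144 exonic bases. Whether the libraries keep the strand is not stated, and without it reads from the overlap cannot be told apart. *Slc25a26* was at 10.7 ± 1.86 CPM in WT and 10.6 ± 0.791 CPM in KO (SD, n = 4 each), a log2 fold change of -0.017 with an SE of 0.14 (BH-adjusted p = 1.0, edgeR).

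The reads of *Lrig2* were on 7 of its 9 transcripts. *Lrig2-201*, the long protein-coding model of 7099 bases, had 1136, 1053, 965 and 1123 reads in WT mice against 1182, 1353, 1733 and 1269 in KO mice. It made up between 76.7% and 92.0% of the gene's reads in WT and between 79.6% and 90.9% in KO. Its log2 fold change was 0.14 with an SE of 0.11 (BH-adjusted p = 1.0, edgeR). *Lrig2-207*, a shorter coding model of 8 exons, had 213, 298, 188 and 0 reads in WT mice against 110, 321, 349 and 262 in KO mice. Of the 1221 *Lrig2* reads in WT replicate 4, 0 were thus assigned to this model. In that mouse 69.7 reads were on *Lrig2-205*, another protein-coding model that had 28.2 in WT replicate 3 and 0 in the other 6 mice. The log2 fold change of *Lrig2-207* was 0.36 with an SE of 1.05 (BH-adjusted p = 1.0, edgeR), and without WT replicate 4 it was -0.050. *Lrig2-202*, in which an intron is retained, had 8.57 to 32.0 reads in a mouse and a log2 fold change of -0.28 with an SE of 0.40 (BH-adjusted p = 1.0, edgeR). *Lrig2-203*, *Lrig2-204* and *Lrig2-208* had at most 8.77 reads in any mouse, and *Lrig2-206* and *Lrig2-209* had 0 in all.

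*Lrig3* reads were on 5 of its 7 transcripts, with between 88.9% and 100% of them on *Lrig3-201* (4016 bases, 19 exons), its annotated protein-coding model. This transcript had 101, 109, 77.7 and 132 reads in WT mice against 100.04, 143, 153 and 156 in KO mice. The groups overlapped, and the log2 fold change was 0.16 with an SE of 0.22 (BH-adjusted p = 1.0, edgeR). The others have no coding sequence in the annotation. *Lrig3-202* had 3.17 reads in WT replicate 3 and 18.3 in KO replicate 4, *Lrig3-207* had 10.9 in WT replicate 1, *Lrig3-203* and *Lrig3-204* had at most 4.94 in any mouse, and *Lrig3-205* and *Lrig3-206* had 0 in all.

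Genes whose proteins LRIG proteins are known to bind or act through did not pass the test between genotypes. Of 27 such genes, all of them tested, 0 passed in edgeR after BH adjustment, where 1 of the 17669 genes did (0.00566%). An unadjusted p under 0.05 was found for 0 of the 27, against 333 of all genes (1.88%). With shares this low over all genes, 0 of 27 does not set the list apart from other genes. The log2 fold change was below 0 for 18 and above 0 for 9, with a median of -0.047, against -0.00094 over all genes. The median was -0.016 with sex as a covariate and turned to 0.0047 without WT replicate 4. Of the 12 growth factor receptors, *Ntrk2*, the receptor of BDNF and the most abundant, was at 744 ± 101 CPM in WT and 744 ± 53.4 CPM in KO (SD, n = 4 each). Of the 3 ubiquitin enzymes, which set how long such receptors last, *Usp8* was the most abundant, at 65.1 ± 7.87 CPM in WT and 64.5 ± 6.05 CPM in KO (SD, n = 4 each). Of the 7 receptors of the TGFβ superfamily, *Bmpr2*, the type II BMP receptor, was at 195 ± 7.95 CPM in WT and 196 ± 10.1 CPM in KO (SD, n = 4 each). Of the 5 genes of axon guidance and shedding, *Neo1*, which codes for neogenin, was at 124 ± 16.7 CPM in WT and 120 ± 15.5 CPM in KO (SD, n = 4 each). The log2 fold changes of these 4 genes lay within 0.048 of 0. The widest values of the list were for *Met*, the hepatocyte growth factor receptor (-0.80, standard error 0.88), and *Ret*, the receptor that GDNF acts through (0.68, standard error 0.71), both singled out after their values were seen.

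With sex as a covariate, 4 of the 27 genes had an unadjusted p under 0.05 (14.8%), where 6.95% of all genes did, and 0 passed (BH-adjusted p from 0.622 to 0.708, edgeR). All 4 were higher in KO, while the median log2 fold change of the 27 with sex as a covariate was -0.016. The share of higher genes among all genes at that level is not given, so this direction was not tested.

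The spread of *Lrig1* among mice of 1 genotype was close to that of several other genes. With genotype means taken out, the log2 CPM of *Lrig1* over 8 mice had a Pearson r over 0.9 with 124 of the 14451 genes compared, while *Lrig2* had one with 14 and *Lrig3* with 42. These are descriptions over 8 libraries, whose depth, sex and dissection all genes share. The genes nearest to *Lrig1* were *Zfp964*, a zinc finger gene (r = 0.980), *Eif2s3x*, an X-linked gene that escapes X inactivation (r = 0.980), and *Dnajc12*, which codes for a co-chaperone (r = 0.979). *Eif2s3x* was at 128, 143 and 137 CPM in the males and between 198 and 217 in the females, which gave the same order of the sexes as *Lrig1* in both genotypes. Nearest to *Lrig2* were *Chek2*, a DNA damage checkpoint kinase gene (r = 0.973), *Mapk1ip1* (r = 0.970) and *Gm6658* (r = 0.951). Nearest to *Lrig3* were *Morn1* (r = 0.984), the zinc finger gene *Zfp213* (r = 0.976) and *Ebf3*, a neuronal transcription factor gene (r = 0.965). The members themselves were less alike, with r = 0.476 for *Lrig1* and *Lrig2*, 0.416 for *Lrig1* and *Lrig3*, and -0.096 for *Lrig2* and *Lrig3*.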

How the data were processed

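The authors prepared polyA libraries, made reads with bcl2fastq 2.20 and ran Salmon (version not given in the sources used here) against Gencode M29. They deposited estimated counts per gene, not normalized, and a file per mouse with the TPM and estimated count of every transcript. Column names matched the labels in all 8 mice, with 0 columns left over. The estimated reads of the LRIG transcripts summed to the deposited gene counts. Gene identifiers were named for 94.8% of rows. Transcript models and sequences came from Gencode M21 (GRCm38), where 97.4% of transcripts, with 99.2% of reads or more, were found. The lengths of all 23 LRIG transcripts were equal in both. Coordinates are not given, since the builds differ.

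Before testing, the estimated counts were rounded. The tests of KO against WT used edgeR 4.0.16 under R 4.3.3 (TMM, filterByExpr, quasi-likelihood test, Benjamini-Hochberg adjustment over all 17669 genes or 39966 transcripts), at an adjusted p under 0.1. The mean of TMM-normalized CPM is given with its SD. Transcript usage was tested with diffSpliceDGE. Sex was fitted as a covariate, and with its interaction. Alternatives were DESeq2 1.42.0 with and without sex, limma 3.58.1 on log2(TPM + 0.1), dropping the filter or requiring 10 counts in each mouse, a replicate block, female mice alone and each mouse left out. The edgeR fits of genes (with and without sex), transcripts, usage and sex, and DESeq2 without sex, were first run on simulated counts. The interaction was run only on simulated counts that held none. The other alternatives and the permutation tests were not run on such counts. Replicates are separate mice. Named genes were the LRIG genes and transcripts, partner genes with an unadjusted p under 0.05 or the highest mean TPM in their role, *Xist* and *Ddx3y*, and for each LRIG gene the 3 genes with the highest Pearson r among those with a mean of at least 1 CPM. *Met*, *Ret*, *Tbr1* and *Rasgrf2* were named outside this rule after their values were seen, and *Slc25a26* for its overlap with *Lrig1*. Single markers of neural stem cells and astrocytes, of septal neurons and *Dbh* were also named after their values were seen. Intervals are at 95% and cover counting error only where they are Wilson intervals. The members and lists were chosen with earlier results of these data known. Values of single genes of the binding partner list that had an unadjusted p under 0.05 with sex as a covariate are not reported here.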

Additional observations from a re-analysis of the deposited data

Results flagged for a closer look

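Of 104 groups of 4 mice looked at for a mouse far from the other 3 (its gap to the nearest of them, over the range, past Dixon's critical value at 95%), 17 were past that value. In 10 of them a transcript had reads in 1 mouse and 0 in the other 3, which puts it past the value by construction. Chance gives about 1 in 20 for values that vary continuously, so this rate cannot be set beside all 17. These were *Lrig1-203* with 1.11 reads in WT replicate 3, *Lrig1-204* with 8.58 in WT replicate 3 and 1.25 in KO replicate 4, *Lrig2-203* with 3.14 in WT replicate 4, *Lrig2-204* with 3.40 in KO replicate 4, *Lrig3-202* with 3.17 in WT replicate 3 and 18.3 in KO replicate 4, *Lrig3-203* with 4.11 in WT replicate 2 and 1.02 in KO replicate 1, and *Lrig3-207* with 10.9 in WT replicate 1.

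The other 7 were these. *Lrig2-201* was at 20.0 CPM in KO replicate 4 and between 23.0 and 23.3 in the other KO mice. *Lrig3-201* was at 2.68 CPM in WT replicate 4 and between 1.68 and 1.81 in the other WT mice. *Slc25a26*, which overlaps the 3′ end of *Lrig1*, was at 9.45 CPM in KO replicate 2 and between 10.9 and 11.1 in the other KO mice. WT replicate 2, the WT male, stood apart in 3 values, with cortical excitatory neuron markers summing to 1772 CPM against at most 367, *Eif2s3x* at 128 CPM against at least 198, and *Mapk1ip1* at 11.5 CPM against at least 13.0 in the other WT mice. Septal neuron markers summed to 209 CPM in KO replicate 2 and to between 36.6 and 64.3 in the other KO mice. In KO replicate 2 *Zic1* (143 CPM), *Nts* (43.0) and *Trpc4* (22.1) were above the other KO mice. *Dbh* (0) and *Prph* (0.406) were below them. *Lrig1* itself was not past the critical value in either group.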

How the results depend on the processing

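Of 349 values recomputed under other settings, 307 kept their direction and their side of the threshold or, for counts and medians, stayed near the reported value. Among the latter the median log2 fold change of the partner genes turned from -0.047 to 0.0047 without WT replicate 4, and was -0.016 with sex. Every adjusted p is Benjamini-Hochberg adjusted and comes from edgeR where DESeq2 is not named. The log2 fold change of *Lrig1* passed with DESeq2 (-3.80, adjusted p = 4.13e-08), with DESeq2 and sex (-3.47, 7.04e-97), without a filter (-3.80, 0.0979), with sex (-3.47, 0.000176), in females (-3.50, 0.0139), and, chosen after seeing the data, with the cortical sum (-4.03, 0.00725) or with sex and the cortical sum (-3.46, 0.00237). With 1 mouse left out it lay between -4.19 and -3.56 and passed only without WT replicate 2 (-4.06, adjusted p = 0.0623). Genes called lower, 1 in the reported test, were 9 with DESeq2, 131 with DESeq2 and sex, 2 without a filter, 0 with at least 10 counts in every mouse, 2 with sex, 0 with the replicate block, 3 in females and 0 to 3 with 1 mouse left out. Genes called higher were 4 with DESeq2, 81 with DESeq2 and sex, and 0 to 2 with 1 mouse left out. *Lrig1-202* passed with DESeq2 (-4.85, adjusted p = 1.14e-06) and with DESeq2 and sex (-4.86, 4.18e-19). Transcripts called lower were 35, 273 and 1, and higher 23, 118 and 2, with DESeq2, with DESeq2 and sex, and without a filter, and 0 to 2 lower and 0 to 3 higher with 1 mouse left out. The sex difference of *Lrig1* lay between -1.63 and -1.43 with 1 mouse left out and missed the threshold without WT replicate 2, the only WT male (-1.48, adjusted p = 0.155), and with the cortical sum as a covariate (-1.55, 0.754). What caused these changes was not tested. Directions also turned for tested values near 0 that passed in no setting. *Lrig2-207* was at -0.050 without WT replicate 4, and its usage at -0.20, with highest values of 0.65 and 0.52 when another mouse was left out. The usage of *Lrig2-201* was at 0.0073 without a filter and at 0.048 without WT replicate 4, with a lowest value of -0.067. The genotype by sex value was 0.0033 for *Lrig3* without WT replicate 3, and for *Lrig1* -0.021 without KO replicate 1 and -0.11 without KO replicate 4, with the range reaching -0.33 for *Lrig3* and 0.37 for *Lrig1*. It was not run without WT replicate 2. Replicate numbers did not pair the mice (correlation of deviations 0.099, -0.28, -0.28 and 0.33 for numbers 1 to 4). The log2 fold change with the replicate block was -3.86 for *Lrig1*, 0.12 for *Lrig2* and 0.16 for *Lrig3*. Depth limits the values of *Lrig3* and of *Lrig1-202* in KO, with 82.0 to 175 and 3.72 to 140 reads in a mouse.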
